A study of Oryza sativa with 72 samples.

Results

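Among 55986 lines of a rice leaf count table, 73 rows stood at least 2-fold above the irrigated controls 2 h after watering resumed and lay near the controls during the drought and 3 days later. A row is 1 line of the table, known only by its place in it (1 is the first data line), since the lines carry no gene identifier. The measure behind the choice was T, the mean log2(CPM + 1) of treated libraries minus that of control libraries of the same leaf and stage, where CPM stands for a row's counts scaled by the library total. Of the 55986 rows 45767 had a count in some library, and 15485 reached a mean of 5 CPM in at least 1 group. Of these 15485 rows 332 (2.14%) had T of at least 1 at 2 h in both leaf positions. The 73 members are those of the 332 whose T also stayed within 0.6 of 0, in both leaves, at drought day 6, drought day 9 and rehydration day 3. A maximum of 200 members left none out. The members were thus chosen by their measured T at 2 h, drought days 6 and 9 and rehydration day 3, and those values are given as a description with no test. Drought day 0 and rehydration day 6 were not used by the choice.

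The plants were IR64, an indica rice cultivar, grown singly in pots of calcined clay with automatic irrigation in a growth chamber. Treated plants entered a severe drought 14 days after sowing, when their pots were raised so that they drained, and were watered again from day 9 for 6 days. Control plants were irrigated throughout, and both treatments shared cultivar, substrate, chamber and age. RNA of the latest fully expanded leaf (here the latest leaf) and of the second latest leaf was sequenced after selection of polyadenylated transcripts, at drought days 0, 6 and 9, at 2 h, and at rehydration days 3 and 6, with 3 libraries in each of 24 groups. By its title the series sought biomarker genes from which the level of drought perceived by rice could be predicted. As a model it covers 1 cultivar in pots, and the labels do not say that the replicates were separate plants, and p-values therefore rest on the variation among libraries, some of which may be technical.

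As soil dries, leaves accumulate abscisic acid, which closes the stomata and switches on many stress genes, while growth and photosynthesis genes are turned down. When water returns, turgor and leaf water potential recover within hours and abscisic acid falls. Transcripts can follow this in several ways. Some return to the level of irrigated plants, and others change for a short time during rehydration alone. The choice of the members fixed their difference from the controls, which is short-lived like the second kind, and not their course in treated leaves. In treated plants the highest stage mean was that of 2 h in 70 members of the latest leaf and 72 of the second latest leaf. It was that of drought day 9 in 3 and 1 members. What the members encode is not known here, and a role is given to none of them. The leaf identity of the samples could not be checked against marker genes for the same reason.

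Library totals ran from 6370914 to 24192248 counts in 71 libraries, so that 3 counts equalled 0.471 CPM in the smallest and 0.124 CPM in the largest. In the latest leaf at drought day 9, treated replicate 2 reached only 1755 counts over 1046 rows and was left out of all values and fits below, so that group has 2 libraries. With that library kept, the same choice takes 66 rows, of which 16 are among the 73. Leaf samples mix many cell types, and fewer cells of a type cannot be told apart from less RNA per cell.

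The limits of the choice cut through a continuous range. Row 46782 had the smallest T inside, 1.17 in the latest leaf and 1.00 in the second latest leaf. Next to it outside was row 5859, with 0.998 in the latest leaf and 1.44 in the second latest leaf. At the other limit row 17111 was kept with a largest deviation of 0.594, and row 55740 was left out with 0.6003.

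At 2 h the 73 members had a median T of 1.26 in the latest leaf (1.02 to 4.21) and 1.49 in the second latest leaf (1.00 to 3.59). Most members lay close to the lower limit: T reached 2 in 14 members of the latest leaf and 13 of the second latest leaf, and 3 in 5 members of each leaf. Those 5 were rows 27075, 23001, 2185, 45622 and 6097 in both leaves. Both leaf positions gave much the same size for a given member, in part because the choice required T of at least 1 in both. T in the second latest leaf minus T in the latest leaf had a median of 0.01, ran from -0.63 to 0.57, and was within 0.5 of 0 in 65 members. Every treated library lay above every control library in 71 members of the latest leaf (19.0% of the 15485 rows) and in 70 members of the second latest leaf (20.9%), counts that follow from the choice.

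**Figure D1:**
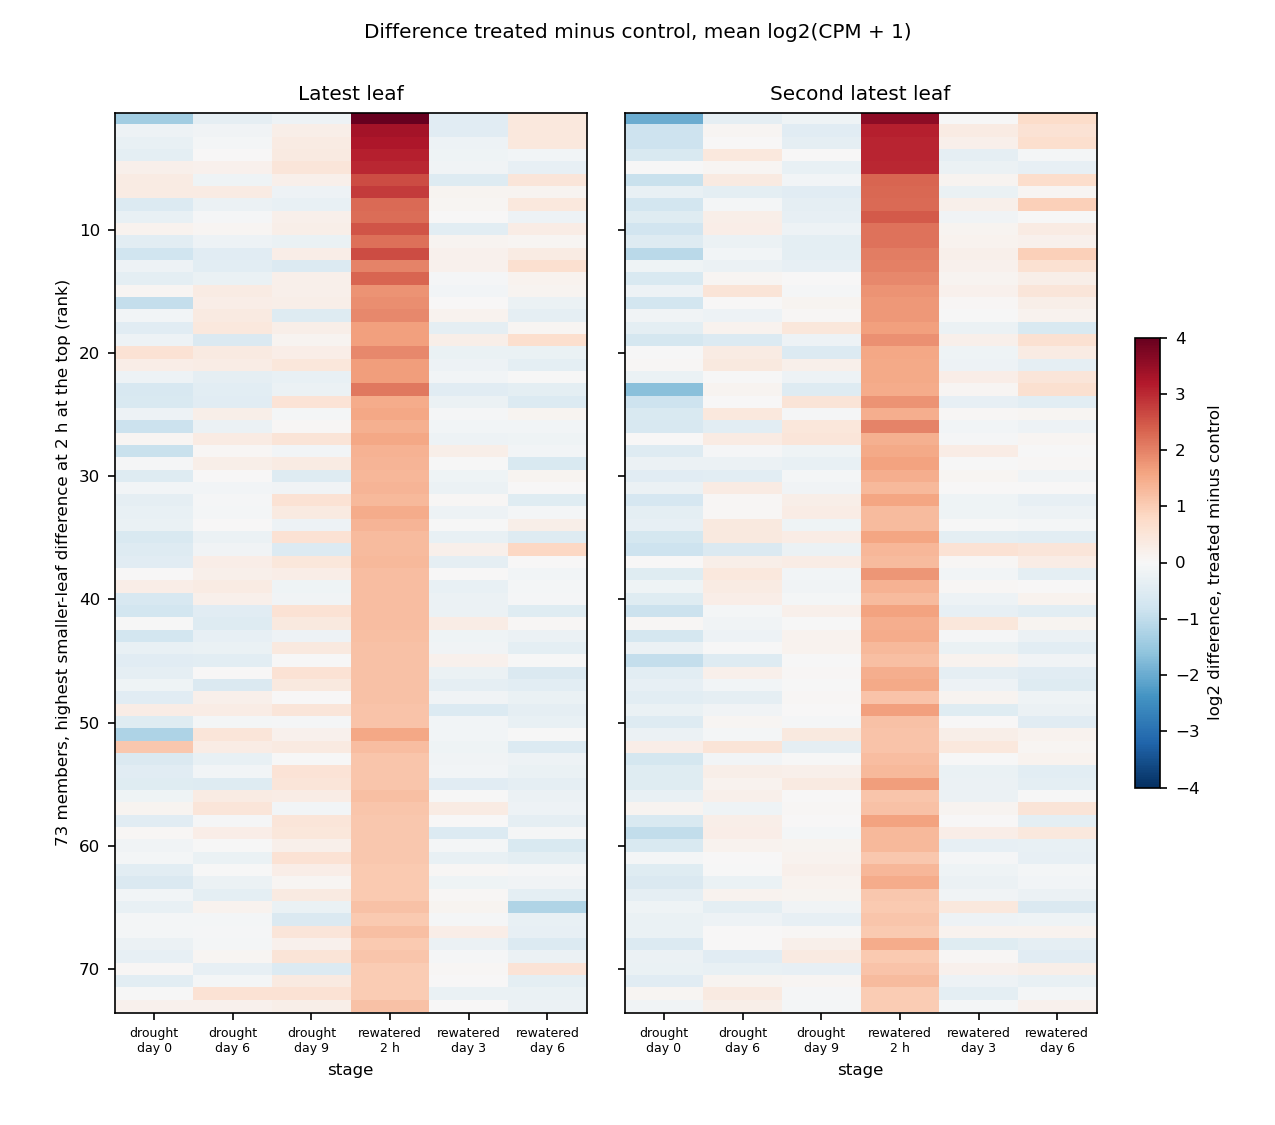
Difference between treated and control libraries (T, log2 scale) for each of the 73 members (down the page, ordered by the smaller of both leaves' T at 2 h) at the 6 stages (across), in the latest leaf (left panel) and the second latest leaf (right panel). The 2 h column is red throughout, since the members were chosen for it, and the day 0 column is blue for 57 members of the latest leaf and 66 of the second latest leaf.

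The member with the largest T was row 27075. At 2 h it had 164, 127 and 69.1 CPM in treated latest leaves, against 4.04, 4.08 and 8.15 CPM in control latest leaves. Treated second latest leaves had 107, 126 and 56.3 CPM of row 27075, against 9.91, 4.34 and 6.80 CPM in control second latest leaves. The lowest treated library was thus several times the highest control library in either leaf. By rehydration day 3 this row was back among the controls, with 2.21, 3.85 and 5.91 CPM in treated latest leaves and 6.94, 7.86 and 2.84 CPM in control latest leaves.

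Row 23001 had 521, 359 and 251 CPM in treated latest leaves at 2 h, against 25.5, 38.6 and 43.3 CPM in control latest leaves. For row 45622 the same libraries gave 635, 571 and 242 CPM, against 44.3, 50.9 and 57.0 CPM in control latest leaves. For row 45622 the second latest leaf gave 524, 525 and 228 CPM in treated plants, against 43.6, 47.2 and 51.0 CPM in controls. Replicate 3 was the lowest treated library for both rows in both leaves, and no treated library came near the controls.

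Row 2185 was by far the most abundant member. It had 8503, 7061 and 5123 CPM in treated latest leaves at 2 h, against 534, 737 and 914 CPM in control latest leaves. Its level in the second latest leaf was 8977, 8258 and 6293 CPM in treated plants, against 1023, 762 and 1024 CPM in controls. Row 6097 was next in abundance, with 2518, 1972 and 917 CPM in treated latest leaves and 143, 240 and 250 CPM in control latest leaves. The third, row 951, differed far less: 1259, 1346 and 1085 CPM in treated latest leaves, against 581, 580 and 642 CPM in control latest leaves. High abundance and a large T thus did not go together in row 951, whose mean at 2 h in treated leaves was 2.05 times the control mean in the latest leaf and 2.21 times in the second latest leaf.

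**Figure D2:**
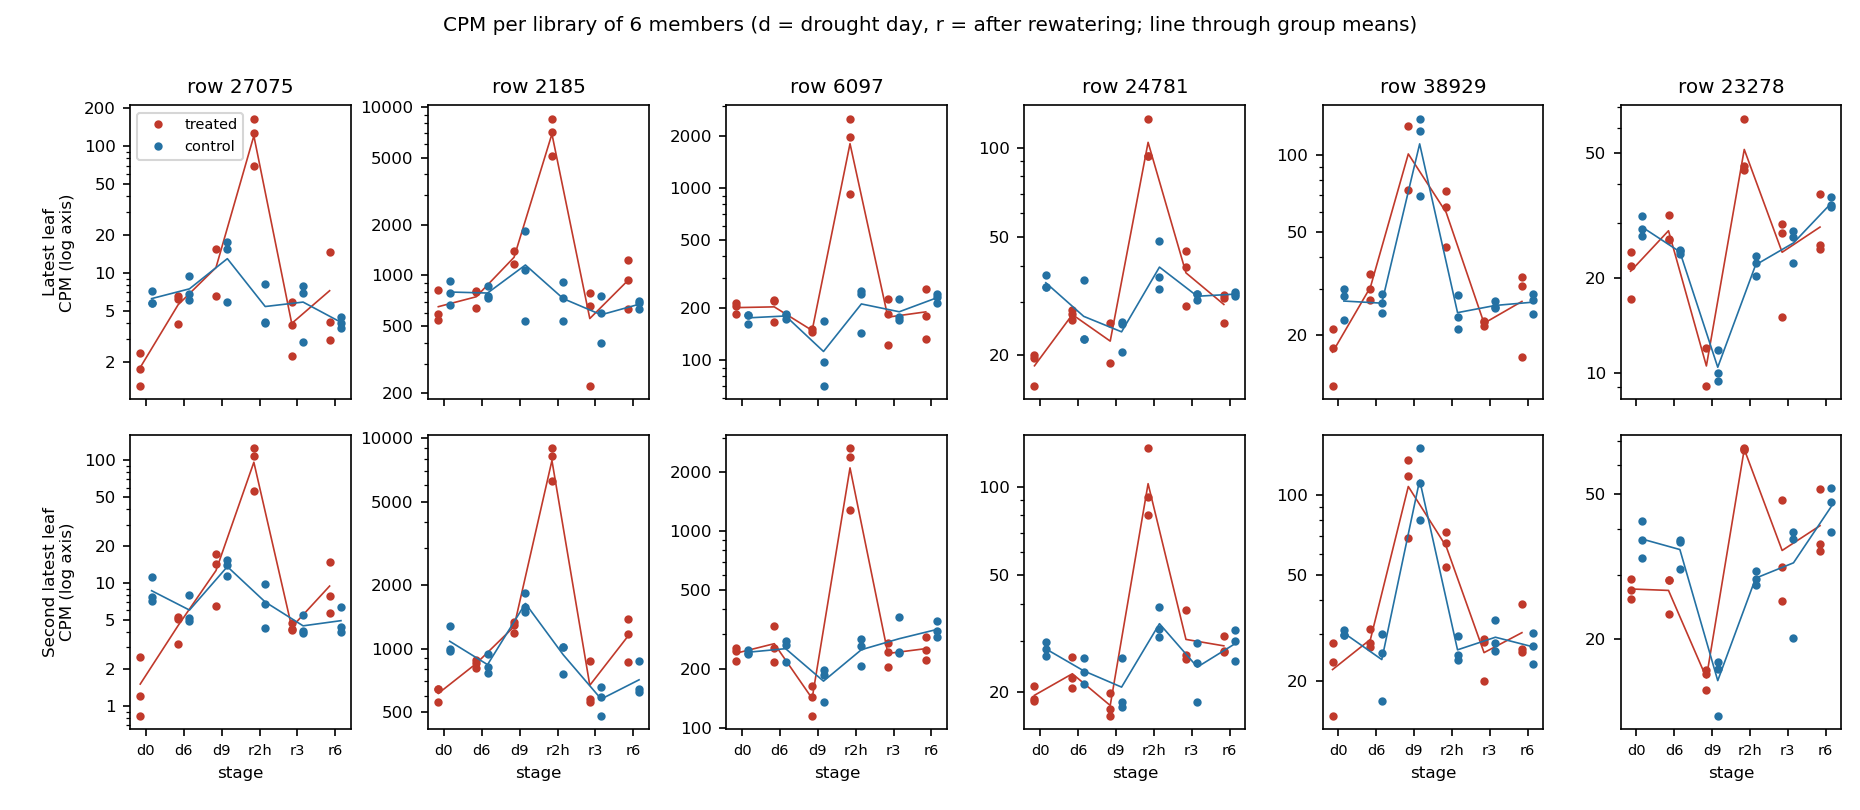
CPM on a log axis of rows 27075, 2185, 6097, 24781, 38929 and 23278 in every library used, by stage (d for drought day, r for rehydration), with treated libraries in red left of control libraries in blue and a line through the group means. Each row peaks at 2 h in treated libraries of both leaves except row 38929, which is higher at drought day 9 in both treatments.

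Levels of the members spanned more than 3 orders of magnitude. Group means at 2 h ran from 4.14 to 6895 CPM in treated latest leaves, with a median of 40.2 CPM, and the control latest leaves had a median of 14.5 CPM. In the second latest leaf the median was 51.4 CPM in treated plants (5.04 to 7843) and 15.8 CPM in controls. Treated means were under 10 CPM in 9 members of the latest leaf and 8 of the second latest leaf, and over 100 CPM in 23 members of each leaf. These are levels per library total and not per transcript length, so they do not rank the rows by transcript number.

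The members took a larger share of all counts at 2 h in treated leaves than in any other group. In the latest leaf they took 2.10%, 1.85% and 1.29% of the counts of the treated libraries, against 0.327%, 0.370% and 0.408% of the control libraries. The second latest leaf gave 2.12%, 1.99% and 1.49% in treated plants, against 0.410%, 0.349% and 0.414% in controls. A large portion of this was row 2185. Without it the shares in the latest leaf were 1.25%, 1.15% and 0.779% in treated plants and 0.274%, 0.296% and 0.316% in controls. The choice of the members fixes the direction of these gaps, and the shares give their size only.

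**Figure D3:**
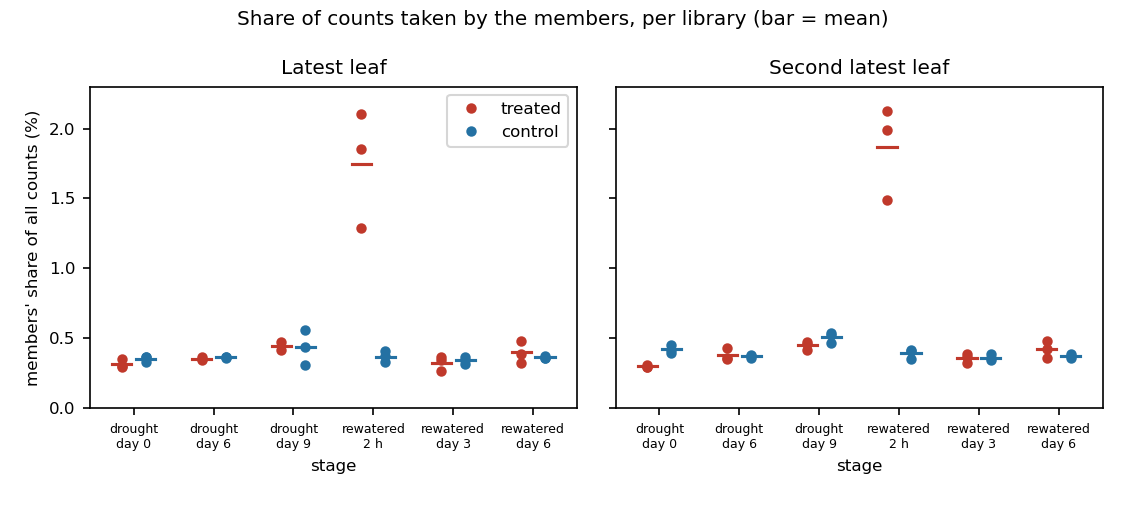
Share of each library's counts (%, linear axis from 0) that the 73 members took together, by stage and leaf, with treated libraries in red left of control libraries in blue; short bars are group means. The 6 treated libraries of 2 h lie between 1.29% and 2.12%, and every other library lies below 0.6%.

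In most members the peak had passed by rehydration day 3, and no stage between was sampled. The treated mean at rehydration day 3 had a median of 0.330 of the treated mean at 2 h in the latest leaf (0.0333 to 0.669) and 0.362 in the second latest leaf (0.0454 to 0.901). Row 27075 gave the lowest ratio in both leaves. Looking back, the treated mean at 2 h was a median 2.73 times that of drought day 9 in the latest leaf and 2.75 times in the second latest leaf. It was under 2 times the day 9 mean in 12 members of the latest leaf and 14 of the second latest leaf. In control latest leaves the mean log2(CPM + 1) over the members was 4.19 at day 9 and 4.17 at 2 h. Control second latest leaves had 4.40 and 4.24. Single members moved more in controls, and their control ratios are not given here. The ratios of day 3 to 2 h follow in large part from the choice. The treated 2 h group had the highest mean of all 12 groups of its leaf in 70 members of the latest leaf and 72 of the second latest leaf, which the choice also made likely.

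The exceptions were members whose level at drought day 9 was high in both treatments, so that treated and control leaves hardly differed there. At day 9 row 38929 had 129 and 72.7 CPM in treated latest leaves, against 138, 123 and 69.2 CPM in control latest leaves. At 2 h it had 72.6, 62.6 and 44.0 CPM in treated latest leaves, against 21.1, 23.4 and 28.6 CPM in control latest leaves. The ratio of its treated means, 2 h over day 9, was 0.593 in the latest leaf and 0.595 in the second latest leaf. In the latest leaf rows 1875 and 1499 also had a lower treated mean at 2 h than at day 9.

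Replicates of the treated 2 h groups differed in the size of the response. Treated replicate 3 was the lowest of the 3 libraries in 65 members of the latest leaf and 51 of the second latest leaf, and in 46 members it was lowest in both. The median coefficient of variation over members was 19.6% in treated and 16.2% in control latest leaves, and 15.7% in treated and 13.9% in control second latest leaves. Without treated replicate 3 of 2 h the same choice takes 100 rows, without replicate 1 it takes 60 and without replicate 2 it takes 64. Of these rows 71, 56 and 63 are among the 73, in that order.

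A few members rested on part of the replicates. Row 1875, singled out after its values were seen, had 95.2, 32.8 and 15.1 CPM in treated latest leaves at 2 h, against 14.8, 16.01 and 17.2 CPM in control latest leaves. The second latest leaf had 239, 65.7 and 17.5 CPM in treated plants, against 22.0, 17.8 and 21.9 CPM in controls. Only treated replicates 1 and 2 of this row stood above the controls, with replicate 1 the higher in both leaves. Row 54669, also singled out afterwards, had 13.0, 2.43 and 11.6 CPM in treated latest leaves and 2.02, 2.67 and 3.32 CPM in control latest leaves. Its second latest leaves had 15.0, 3.24 and 17.7 CPM in treated plants and 2.09, 3.39 and 3.48 CPM in controls, so treated replicate 2 stayed at the control level in both leaves. The third member whose groups overlapped was row 51423, in the second latest leaf alone, with 30.8, 24.4 and 10.7 CPM in treated plants and 11.3, 5.56 and 4.18 CPM in controls.

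The members were spread over the whole table, from row 951 to row 55498. A pair of them, rows 6097 and 6098, lay on consecutive lines. Row 6098 had between 0.356% and 1.39% of the CPM of row 6097 in every group (median 0.612%). Rows 51550 and 51552 lay 2 lines apart, and row 51552 had 5.95% to 8.99% of the CPM of row 51550 (median 7.63%). The smaller row of this second pair thus kept much the same proportion of the larger one through all groups. The sources used here do not say how reads shared by overlapping or near-identical genes were counted, so the smaller row of each pair is uncertain as a separate transcript. Of 72 other rows with enough counts that lay directly beside a member, only row 38065 had T of at least 1 at 2 h in both leaves (1.36 in the smaller).

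Drought day 0, when the treatment began, was outside the choice, and there most members lay lower in the plants assigned to drought than in the controls. T was below 0 in 57 of 73 members of the latest leaf (median -0.30) and 66 of the second latest leaf (median -0.44), and 54 members were below 0 in both. Over the 15485 rows the medians of T were 0.09 and 0.04, with 35.4% and 43.9% of rows below 0 in the latest and second latest leaf. TMM scaling (trimmed mean of M values, which sets the bulk of rows level) left the members' medians at -0.39 and -0.47, with 62 and 68 below 0. Fitted log2 fold changes, treated over control, were below 0 in 63 members of the latest leaf (median -0.44) and 70 of the second latest leaf (median -0.56), whereas all rows tested had medians of 0.00 and -0.02. All treated libraries lay below all controls in 30 members of the latest leaf (9.47% of the 15485 rows), in 47 of the second latest leaf (10.7%), and in 28 in both leaves (4.01%). In treated plants the lowest of the 6 stage means was that of day 0 in 33 members of the latest leaf and 38 of the second latest leaf. In controls it was that of day 0 in 14 and 7 members. For all 15485 rows this count was not made.

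Few of these differences passed the test for a single row. By edgeR's quasi-likelihood test with Benjamini-Hochberg adjustment, 3 members were called lower and 0 higher in the latest leaf, where 0.637% of 21037 rows tested were called. In the second latest leaf 0 members were called, as were 0 of the 20950 rows tested (0%). At an unadjusted p under 0.05 the latest leaf had 33 members, 32 of them lower (15.5% of all rows tested), and the second latest leaf had 40, all lower (10.5% of rows). DESeq2 called 9 members lower in the latest leaf (3.35% of the 17366 rows with an adjusted p were called) and 3 lower in the second latest leaf (0.197% of 17294 rows). The 3 calls of the latest leaf fell to 0 without control replicate 3 (0.0857% of rows called) or without treated replicate 3 (0.0715%). They fell to 1 without control replicate 1 (0.0619%) or without treated replicate 1 (0.124%). The share of all rows called thus fell as well, from 0.637%.

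The clearest member at day 0 was row 20175, with 15.8, 19.1 and 16.8 CPM in treated latest leaves, against 22.0, 23.3 and 27.5 CPM in control latest leaves. All treated libraries were lower, with a fitted log2 fold change of -0.60 ± 0.11 (SE) and an edgeR adjusted p of 0.0119. Row 24781 had 19.9, 19.4 and 15.7 CPM in treated latest leaves, against 33.9, 33.9 and 37.1 CPM in control latest leaves. This row also differed without overlap (log2 -1.04 ± 0.19, edgeR adjusted p = 0.0141). The third called, row 10373, had 14.8, 13.9 and 20.1 CPM in treated and 39.9, 28.3 and 28.0 CPM in control latest leaves (log2 -1.09, edgeR adjusted p = 0.0434); it is named because it completes the 3.

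The row with the largest 2 h response was low at day 0 too, without a call. At day 0 row 27075 had 1.76, 2.35 and 1.28 CPM in treated latest leaves, against 7.17, 5.81 and 5.80 CPM in control latest leaves. The second latest leaf had 1.20, 2.49 and 0.834 CPM in treated plants, against 11.2, 7.12 and 7.74 CPM in controls. Neither leaf's groups overlapped, and the fitted log2 fold changes were -1.93 and -2.59, with edgeR adjusted p of 0.0961 in the latest and 0.180 in the second latest leaf. Row 2185 showed this in 1 leaf: at day 0 treated second latest leaves had 643, 559 and 641 CPM and control second latest leaves had 1280, 980 and 1001 CPM. Treated latest leaves had 588, 823 and 546 CPM of row 2185 and control latest leaves 928, 672 and 792 CPM, so those groups overlapped.

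A minority went the other way. All treated libraries were higher than all controls at day 0 in 6 members of the latest leaf (24.2% of the 15485 rows) and 0 of the second latest leaf (12.6%). Among these 6 were row 6097 and its neighbour row 6098. Row 25738 was higher in the latest leaf at an unadjusted edgeR p under 0.05, with 2.76, 4.23 and 5.59 CPM in treated and 0.812, 2.07 and 1.50 CPM in control latest leaves (log2 1.42, adjusted p = 0.174, not called). It was singled out after its values were seen.

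The members' share of counts gives the size of the day 0 gap in each library. It was 0.301%, 0.354% and 0.293% in treated latest leaves, against 0.363%, 0.330% and 0.366% in control latest leaves, with overlap. In the second latest leaf it was 0.294%, 0.296% and 0.307% in treated plants, against 0.453%, 0.393% and 0.414% in controls, with none.

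**Figure D4:**
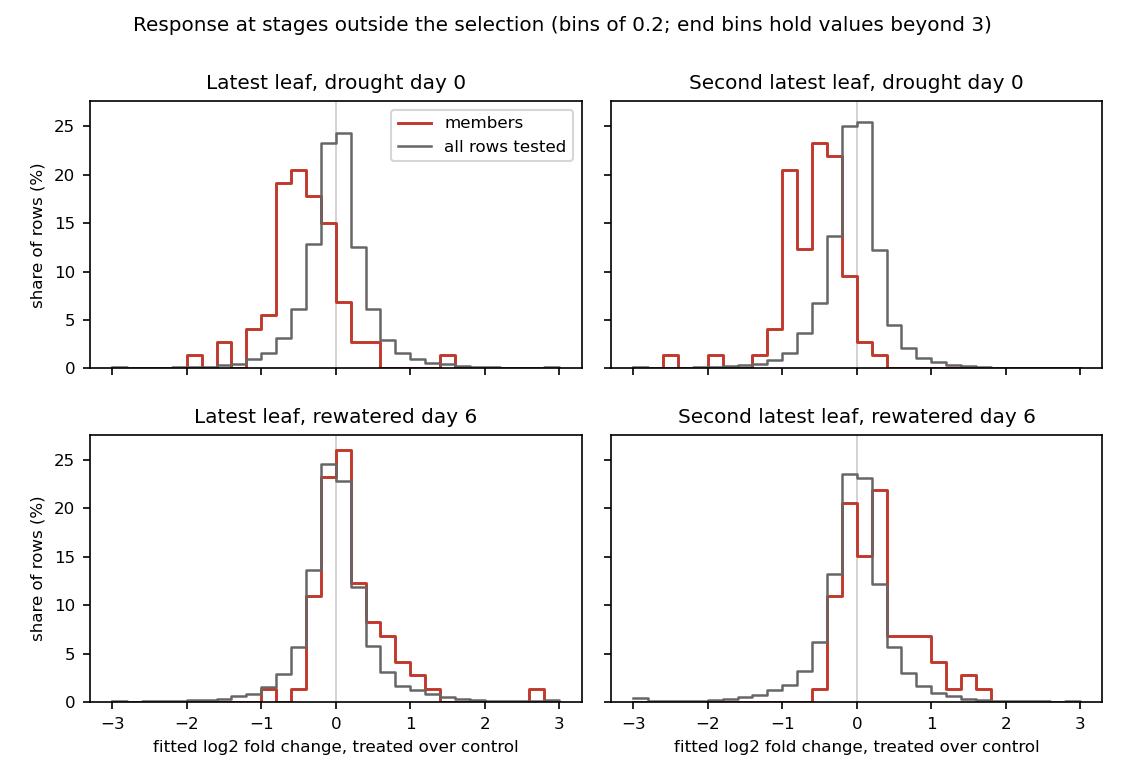
Share of rows (%) by fitted log2 fold change, treated over control, in bins of 0.2, for the 73 members (red) and all rows tested (grey), at drought day 0 (top) and rehydration day 6 (bottom) in the latest leaf (left) and second latest leaf (right). At day 0 the members lie left of all rows, with medians of -0.44 and -0.56, and at day 6 they have medians of 0.07 and 0.22.

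At rehydration day 6, the other stage outside the choice, the members lay near the controls, and the direction depended on the scaling. T, on CPM by library total, had a median of -0.19 in the latest leaf and -0.02 in the second latest leaf. Here all 15485 rows were shifted as well, with medians of -0.26 and -0.21. With libraries scaled by TMM the members' medians turned positive, at 0.07 and 0.18, and 30 members of the latest leaf were below 0, against 51 by library total. TMM raised the median T of the 15485 rows by 0.25 in the latest and 0.19 in the second latest leaf at this stage. It moved it by -0.14 and -0.12 at drought day 6 and by -0.23 at drought day 9 in the latest leaf, and by less than 0.1 elsewhere. The fitted log2 fold changes, which use TMM, had medians of 0.07 and 0.22, beside -0.01 and -0.01 over all rows tested.

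No member was called at rehydration day 6 by edgeR: 0 in the latest leaf, where 0 of 21037 rows (0%) were called, and 0 in the second latest leaf, where 0.263% of rows were called. At an unadjusted p under 0.05 there were 12 members in the latest leaf, 11 of them higher (12.9% of all rows tested), and 17 in the second latest leaf, 16 of them higher (16.3% of rows). DESeq2 gave an adjusted p to 9 members in the latest leaf and called 2 higher, where 15.2% of the 1460 rows with an adjusted p were called. In the second latest leaf it called 6 higher of 72 with an adjusted p, beside 2.59% of 18106 rows. In each leaf the edgeR count turned on 1 library, treated replicate 2 of that leaf. Without that library edgeR called 5 members in the latest leaf (4 higher, 1 lower) and 4.79% of all rows. In the second latest leaf edgeR called 6 members (all higher) and 1.31% of rows without its treated replicate 2. All treated libraries lay above all controls in 1 member of the latest leaf (1.47% of the 15485 rows) and 3 of the second latest leaf (4.51%). With TMM scaling these counts were 4 (7.36% of rows) and 11 (12.44%).

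Row 2185 came closest to a call, with 1388, 864 and 1182 CPM in treated second latest leaves at day 6, against 872, 644 and 621 CPM in control second latest leaves. Its lowest treated library was just below its highest control (log2 0.91 ± 0.22, edgeR adjusted p = 0.0523). In the latest leaf the smallest adjusted p, 0.188, belonged to row 951, with 1055, 527 and 681 CPM in treated and 533, 486 and 473 CPM in control latest leaves (log2 0.92 ± 0.20). Row 7617, singled out after its values were seen, stood above the controls without overlap in both leaves at a low level: treated latest leaves had 1.12, 0.820 and 0.490 CPM and control latest leaves 0.123, 0.234 and 0.0922 CPM. Several of these values are at or below what 3 counts would give, and its adjusted p was 0.242 by edgeR. The share of counts taken by all members at day 6 was 0.479%, 0.388% and 0.326% in treated latest leaves, against 0.360%, 0.361% and 0.370% in control latest leaves, with replicate 1 the highest.

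The controls themselves were not constant for these rows, nor for many others. In irrigated plants at drought day 9 against day 0, edgeR called 15 members higher (12.8% of rows tested were called higher) and 7 lower (12.9%) in the latest leaf. The second latest leaf had 12 higher (10.6%) and 5 lower (9.39%). With 73 members, 15 and 12 are somewhat above and 7 and 5 somewhat below those shares. In either direction 22 and 17 of the 73 members were called. Among rows tested that reached 5 CPM, edgeR called 4674 of 15476 in the latest leaf and 3583 of 15473 in the second latest leaf. The members' proportions were thus much the same as those of rows of such levels. In all 8 members were called higher and 4 lower in both leaves, 0 were called in opposite directions, and 46 were called in neither. For all rows tested these counts over both leaves were not made, so they do not set the members apart. In the second latest leaf 17 members and 20.0% of all rows were called with every library used. Without day 0 control replicate 3 these were 11 members (7 higher, 4 lower) and 12.9% of rows. Without day 9 control replicate 2 they were 11 members (8 higher, 3 lower) and 13.9% of rows. Treated plants of day 9 lay near the levels of those controls, since T at day 9 had to be within 0.6 of 0. The day 9 control libraries entered the choice through that T, so the calls and p-values over time are a description.

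The largest difference over time was that of row 38929, which had 138, 123 and 69.2 CPM in day 9 control latest leaves, against 30.2, 22.7 and 28.2 CPM in day 0 control latest leaves (log2 2.18 ± 0.26, edgeR adjusted p = 6.23e-07). The second latest leaf gave 150, 110 and 80.5 CPM at day 9, against 29.8, 31.1 and 29.7 CPM at day 0 (log2 2.06 ± 0.27, edgeR adjusted p = 3.2e-06). Neither leaf's groups overlapped. Row 28957 had 96.4, 133 and 69.5 CPM in day 9 control latest leaves and 42.6, 44.0 and 44.9 CPM in day 0 ones (log2 1.33 ± 0.16, edgeR adjusted p = 9.3e-07), and its log2 change in the second latest leaf was 1.34. Row 55076 was scarcer, with 21.3, 18.3 and 8.23 CPM at day 9 and 5.01, 3.41 and 4.31 CPM at day 0 in control latest leaves (log2 2.06 ± 0.48, edgeR adjusted p = 0.00212). All 3 rows were higher in every day 9 library than in any day 0 library of the latest leaf.

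Row 23278 went the opposite way, with 10.0, 9.40 and 11.9 CPM in day 9 control latest leaves and 27.3, 28.7 and 31.5 CPM in day 0 control latest leaves (log2 -1.28 ± 0.18, edgeR adjusted p = 5.72e-06). Its second latest leaves had 17.3, 12.3 and 16.6 CPM at day 9 and 42.0, 33.3 and 37.5 CPM at day 0 (log2 -1.13, edgeR adjusted p = 5.81e-05). For row 5945 the values were 53.6, 58.0 and 63.7 CPM at day 9 and 115, 100 and 102 CPM at day 0 in control latest leaves (log2 -0.68 ± 0.20, edgeR adjusted p = 0.0137). Both rows were lower in every day 9 library, and both were above the controls at 2 h in treated plants: row 5945 had 442, 446 and 280 CPM in treated latest leaves, against 112, 149 and 133 CPM in control latest leaves.

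**Figure D5:**
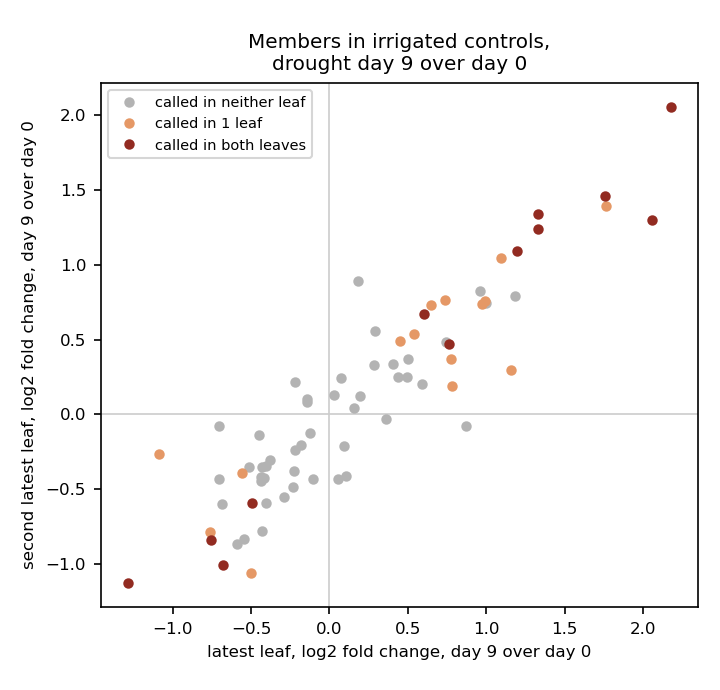
Fitted log2 fold change of each of the 73 members in irrigated controls, drought day 9 over day 0, in the latest leaf (x axis) and the second latest leaf (y axis); dark red marks the 12 members called in both leaves, orange those called in 1 leaf and grey the 46 called in neither. Row 38929 is the point at the upper right (2.18 and 2.06), and row 23278 is the one at the lower left (-1.28 and -1.13).

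The size of the 2 h response was described in these classes as well. Its median T in the latest leaf was 1.68 in the 19 members called higher in controls of day 9 in a leaf, 1.21 in the 8 called lower and 1.24 in the 46 called in neither. In the second latest leaf it was 1.56 in the members called higher, 1.44 in those called lower and 1.47 in those called in neither.

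Between leaf positions the members did not differ in a way that passed the test. In controls of drought day 0, latest over second latest leaf, edgeR called 0 members, with 5 at an unadjusted p under 0.05 (16.3% of rows), and 1.09% of the 21824 rows tested were called. In controls of rehydration day 6 it called 0 members, with 3 at an unadjusted p under 0.05 (11.2% of rows), and 0.298% of rows were called. DESeq2 called 0 members in both, and 2.40% of rows with an adjusted p at day 0 and 0.837% at day 6. With the replicate number as a block, which pairs the leaves (same-numbered libraries of both leaves deviated together at these stages), 5 members were called at day 0 (9.04% of rows were called) and 2 at day 6 (4.15%), all higher in the latest leaf. Leaf differences in the response to treatment were called by edgeR in 0 members at day 6, with 1 at an unadjusted p under 0.05 (6.42% of rows), and 0.00458% of rows were called. At drought day 0 they were called in 0 members, with 3 at an unadjusted p under 0.05 (2.31% of rows), and 0% of rows were called. DESeq2 called 0 members in both, and 0.0504% of rows at day 6 and 0.00458% at day 0.

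The 259 rows that were pulsed at 2 h but differed from the controls at another of the chosen stages were set beside the members, with no test of the difference between the sets. At drought day 0 the fitted log2 fold changes had medians of -0.44 in the latest leaf and -0.56 in the second latest leaf in the members, next to -0.51 and -0.59 in the other rows. The lower values at day 0 were thus found in both sets. At rehydration day 6 the members had medians of 0.07 and 0.22, and the other rows had -0.26 and -0.13. In controls of day 9 over day 0 the members had medians of 0.09 and 0.08, and the other rows had -0.63 and -0.41. Of the 259 other rows 25 were called higher and 103 lower in the latest leaf, and 21 higher and 13 lower in the second latest leaf. The day 9 controls entered T at drought day 9, by which the sets were split, so the choice may account for part of this gap.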

How the data were processed

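The authors deposited raw read counts per row, with no normalisation. Per the submitters' processing notes, the tools were STAR and featureCounts 2.0.0, and the genome build was IRGSP-1.0. No annotation, strand setting or rule for shared reads is given in the sources used here. All 72 columns were matched to samples by the library names in the labels.

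From these counts CPM by column total and T were computed in Python 3.11.15 to find the members. Tests were made in R 4.3.3 with edgeR 4.0.16 (filterByExpr by group, TMM, quasi-likelihood fits with 1 mean per group over all libraries of a leaf, or of both leaves for comparisons between them). Calls were made at a Benjamini-Hochberg adjusted p under 0.05 over all rows tested, and all 73 members passed the filter. Standard errors are the log2 fold change divided by the root of the F statistic. The scripts were tested on simulated data. The library of 1755 counts, under a minimum of 2000, was left out. Levels of 3 counts cover counting error only.

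Alternatives were DESeq2 1.42.0, no filter, only the compared groups, a replicate block, leaving out each replicate, and other limits for the members. Pairing was checked by correlating deviations from group means: same-numbered leaves of 1 treatment correlated by 0.317 to 0.489 at drought day 0 and 0.142 to 0.643 at rehydration day 6. None of 70 replicate pairs was identical (0 pairs).

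Rows were named by rule: the 4 highest T, the 3 most abundant, the rows at the limit, and the 2 largest rises and falls in controls. Named too were up to 2 called members with the smallest adjusted p in each comparison other than that of 2 h. Other rows were named after their values were seen. The members, lists and tests were chosen with earlier results of these data known.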

Additional observations from a re-analysis of the deposited data

Results flagged for a closer look

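Row 51550 was flagged because its treated and control libraries at drought day 0 separated in opposite directions in the leaf positions. Treated latest leaves had 166, 192 and 171 CPM, against 143, 134 and 141 CPM in control latest leaves. Treated second latest leaves had 96.4, 82.1 and 141 CPM, against 211, 186 and 186 CPM in control second latest leaves. T was 0.334 in the latest leaf and -0.897 in the second latest leaf, a difference of 1.231. The edgeR test of that difference between leaves gave a log2 value of 1.15 with an adjusted p of 1.00, so it was not called.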

How the results depend on the processing

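The calls outside the choice, and those in controls of day 9 over day 0, depended on the fit. The share called in the same fit, of all rows with an adjusted p, stands in brackets. In the latest leaf at drought day 0 there were 9 with DESeq2 (3.35%), 23 with no filter (3.80%) and 22 from the compared groups alone (7.42%), and in the second latest leaf 3 (0.197%), 11 (0.333%) and 7 (0.414%). At rehydration day 6 the latest leaf had 2 with DESeq2 (15.2%) and 13 with no filter (3.06%), and the second latest leaf had 6 (2.59%) and 9 (1.83%). The 15.2% is of only 1460 rows, 9 of them members, so it cannot be set beside the other shares. Controls of day 9 over day 0 had 34 calls in the latest leaf with no filter (13.0%) and 28 in the second latest leaf from the compared groups alone (25.0%). Between leaves in controls of day 0, 5 were called from the compared groups alone (9.75%). The replicate block gave 1 call in the second latest leaf at rehydration day 6 (0.597%), and between leaves 5 at day 0 (9.04%) and 2 at day 6 (4.15%); other counts of calls stayed within 1.5 times under the block. Treated and control libraries share only a number. TMM scaling gave 4 (7.36% of rows) and 11 (12.44% of rows) members without overlap above the controls at day 6 (added after the data were seen). The choice took 138 rows with TMM library sizes, of which 59 were among the 73. It took 26 rows with a limit of 0.4 in place of 0.6 and 162 with 0.8, and the 162 held all 73.

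Leaving out single libraries gave 0 to 2 calls at day 0 in the latest leaf (0.0619% to 0.366% of rows) and 0 to 0 in the second latest leaf (0%). At rehydration day 6 the ranges were 0 to 5 (0% to 4.79%) and 0 to 6 (0% to 1.31%). Controls of day 9 over day 0 gave 16 to 24 (17.7% to 24.0%) and 11 to 17 (12.8% to 18.3%). The comparisons and interactions between leaves gave 0 to 0 (0% to 0.866%). Leaving out a replicate number throughout gave 42 to 121 rows for the choice, and many members were lost. Without replicate 1 the choice took 121 rows, 38 of them among the 73. Without replicate 2 it took 42 rows (32 of the 73), and without replicate 3 it took 102 (48 of the 73). Over all alternatives the members' median log2 fold change at day 0 stayed between -0.57 and -0.34 in the latest leaf and between -0.60 and -0.48 in the second latest leaf. At rehydration day 6 it ran from -0.04 to 0.14 in the latest leaf and from 0.07 to 0.29 in the second latest leaf. Of the rows named by rule none changed sign under the alternatives, and 4 calls were lost in at least 1: rows 20175 and 24781 at day 0 (each in 3 of 12, highest adjusted p 0.105 and 0.128 by edgeR or DESeq2), row 55076 in the second latest leaf and row 5945 in the latest leaf, in controls. Row 10373 lost its call too where the day 0 count fell to 0, and the other rows named afterwards were not recomputed. The cause was not tested. Depth limits rows under about 0.471 CPM, the level of 3 counts in the smallest library.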
